A study of Sus scrofa with 70 samples.

Results

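The bulbourethral gland of 12-month-old boars was compared between breeds of pig by RNA-seq, with 3 libraries from Diannan small-ear (DSE) pigs, a breed that is not inbred, and 3 from the Banna mini-pig inbred (BMI) line, which was bred from DSE pigs. These 6 libraries were chosen by their labels for gland, breed and assay, out of 30 RNA-seq libraries and 70 samples of all assays from this gland, prostate and vesicular gland, epididymis and testis of the same breeds. No treatment was named for either breed, and the labels do not say whether the 3 libraries of a breed came from separate boars, so the p-values below measure only the spread between these libraries. Abundance is given as TPM, a length-corrected share of a library's transcripts scaled to the same total in each library, and was summed over the transcripts of each gene. Of 35552 genes, 13674 reached 1 TPM in at least 3 of the 6 libraries and were tested.

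The bulbourethral glands lie beside the pelvic urethra and are large in the boar, where they give the viscous, sialic acid-rich gel fraction of the ejaculate. Their secretory cells are mucous cells, which fold mucins and other secreted proteins in the endoplasmic reticulum (ER), join glycans to them in the Golgi and store the product in granules. When client proteins exceed what the ER can fold, the sensors IRE1, PERK and ATF6 start the unfolded protein response, in which the transcription factors XBP1, ATF4 and cleaved ATF6 raise chaperones, disulfide isomerases and the machinery that removes misfolded proteins.

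The libraries did not separate by breed along their main axis of variation. The first principal component of the 13674 genes held 43.03% of the variance, of which 1.35% lay between the breeds. It set DSE replicate 2 (score -54.8) and BMI replicate 1 (-32.5) against DSE replicate 3 (42.7). In the paper's quality measures, DSE replicate 2 and BMI replicate 1 had the lowest median transcript integrity of the 6 libraries. Whether RNA quality contributed to this component was not tested. The breeds separated along component 3, which held 19.5% of the variance, 76.8% of it between the breeds. DSE replicate 3 stood apart in the markers of other cell types. Skeletal muscle genes summed to 114, 144 and 2933 TPM in DSE and 769, 181 and 134 TPM in BMI (replicates 1, 2 and 3, an order kept below). For interferon-stimulated genes the sums were 629, 392 and 2203 TPM in DSE and 495, 541 and 653 TPM in BMI. Smooth muscle genes summed to 282, 299.7 and 1133 TPM in DSE and 403, 298 and 737 TPM in BMI. Their members did not all follow the sum. DES, TPM2 and HSPB6 were at 216, 173 and 125 TPM in DSE replicate 3 and at 23.6, 34.7 and 40.9 TPM in BMI replicate 3. ACTA2 and MYH11 were highest in BMI replicate 3, at 173 and 41.4 TPM against 141 and 27.4 TPM in DSE replicate 3. Plasma cell and B cell genes gave 208, 372 and 1962 TPM in DSE and 131, 1641 and 1253 TPM in BMI, high in DSE replicate 3 and in BMI replicates 2 and 3. BMI replicate 2 stood apart in adipocyte genes, whose sums were 344, 361 and 407 TPM in DSE and 407, 563 and 432 TPM in BMI. Of the defining adipocyte genes, ADIPOQ was at 45.8 TPM and PLIN1 at 18.7 TPM in that library and at most 0.0773 and 0.174 TPM in the others. Markers of testis germ cells and of epididymis were at most 20.9 and 32.8 TPM in sum. In whole tissue, fewer cells of a type and less RNA per cell cannot be told apart.

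**Figure D1:**
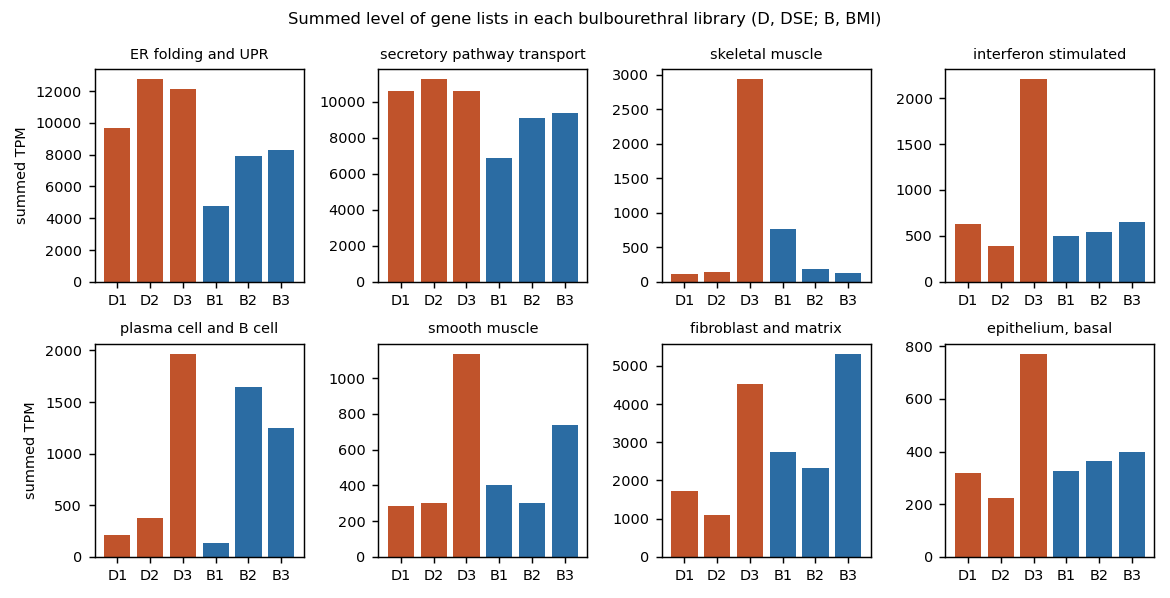
Summed TPM (vertical axes, from 0) of 8 gene lists in each bulbourethral library, with DSE replicates 1 to 3 in orange (D1 to D3) and BMI replicates 1 to 3 in blue (B1 to B3). The ER folding and transport sums are higher in every DSE library than in any BMI library. The skeletal muscle, interferon, smooth muscle and basal epithelium sums are highest in DSE replicate 3, and the smooth muscle sum is next highest in BMI replicate 3.

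A single secreted lectin dominated the gland in both breeds. LOC110259943, a zymogen granule protein 16 homolog B-like gene at chr3:39344119-39360833, held 17.1% to 34.3% of the TPM of a library, with 267396, 286631 and 170900.0 TPM in DSE and 343370.0, 275738 and 250823 TPM in BMI. It was lowest in DSE replicate 3, the breeds overlapped, and the log2 difference (DSE minus BMI, on log2(TPM + 1)) was -0.29 ± 0.332 (SE). MUC5B, the gel-forming mucin, had 19349, 11885 and 14669 TPM in DSE and 16125, 5376 and 6395 TPM in BMI. Its level was high in BMI replicate 1 and lower in the other two BMI libraries, so that the breeds overlapped (0.87). TFF3, a trefoil peptide secreted with mucins, was at 10132, 12973 and 8225 TPM in DSE and 14956, 9589.5 and 8552 TPM in BMI and differed by -0.06. AGR2, the disulfide isomerase that mucin folding needs, was at 11015, 22734 and 17295 TPM in DSE and 4892, 10287 and 8161 TPM in BMI. All 3 DSE libraries lay above all 3 BMI libraries for AGR2, by 1.13 ± 0.346, but the gene did not pass the test (limma adjusted p = 0.54). The other 6 of the 10 most abundant genes were mitochondrial ATP6, COX3, COX1, COX2 and ND3 and the ribosomal RPLP1, with log2 differences between -0.05 and 0.23.

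**Figure D2:**
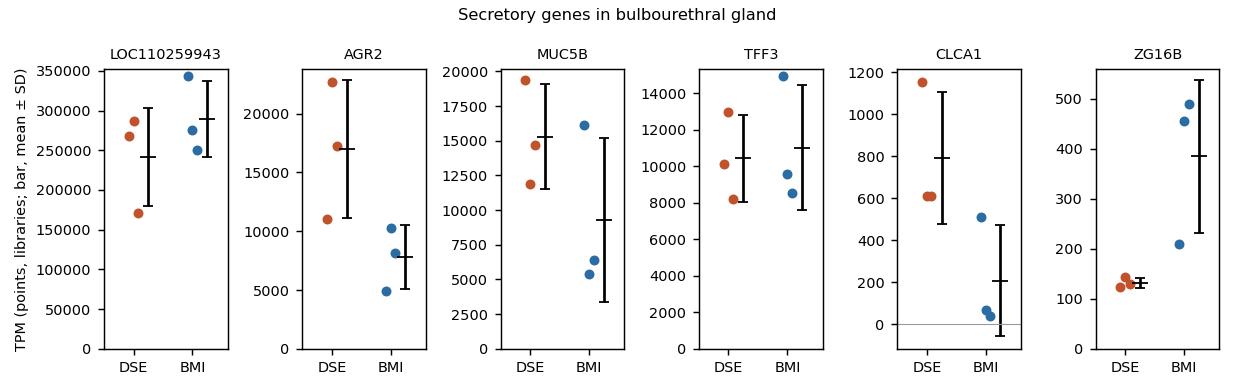
TPM (vertical axes, linear) of 6 secretory genes in the 3 DSE (orange) and 3 BMI (blue) libraries, with the mean ± SD of each breed in black. AGR2, CLCA1 and ZG16B do not overlap between the breeds, while LOC110259943, MUC5B and TFF3 do.

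Genes that differed between the breeds were sought with limma on log2(TPM + 1), and a call needed a log2 difference of at least 1 together with p below 0.05 after Benjamini-Hochberg adjustment over the 13674 genes. In total 3 of 13674 genes (0.0219%) were called, all of them higher in DSE, and 0 were called higher in BMI, while 761 genes had an unadjusted p below 0.05. Of the 3 genes, 2 lay in the swine leukocyte antigen (SLA) region, the pig major histocompatibility complex, which presents peptides to T cells.

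ENSSSCG00000001458, a gene without a symbol at chr7:24993912-25001567 between SLA-DQB1 and SLA-DMB, was at 16.03, 26.1 and 28.9 TPM in DSE and 0.279, 0.495 and 0.111 TPM in BMI. Every DSE library was at or above 16.0 TPM and every BMI library at or below 0.495 TPM, a log2 difference of 4.22 ± 0.31 (adjusted p = 0.00812). One annotated transcript carried 97.9% of its level. ENSSSCG00000062469_ENSSSCG00000001229, an isoform of the Iso-seq assembly that joins the class I-like gene LOC100513601 to SLA-3 (chr7:22869147-22942727), was at 44.4, 43.1 and 83.2 TPM in DSE and 1.97, 2.08 and 4.003 TPM in BMI. The breeds were 3.95 ± 0.34 apart (adjusted p = 0.0144), and all DSE libraries were at or above 43.1 TPM. The genes it spans did not follow it. SLA-3 itself, a classical class I gene, had 138, 111 and 295 TPM in DSE and 94.8, 179 and 166 TPM in BMI (log2 difference 0.23), and LOC100513601 differed by -0.42. Reads from these near-identical, overlapping models are divided by estimation, so their split is uncertain. Among the other class I and class II genes tested there, SLA-DRB1 (-0.28), SLA-DQA1 (0.21), SLA-DQB1 (0.12) and SLA-2 (0.24) had overlapping libraries and small log2 differences. They are named here after their values were seen.

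TDRD9, a tudor-domain RNA helicase known for transposon silencing with piRNAs in germ cells, was at 12.5, 6.03 and 8.43 TPM in DSE and 0.146, 0.178 and 0.109 TPM in BMI. Its log2 difference was 3.08 ± 0.308 (adjusted p = 0.0305), with every BMI library near 0. The gene lies on the unplaced scaffold AEMK02000452.1 (2393955 to 2479145). In the other accessory glands and in epididymis TDRD9 was also higher in DSE, with 6.29 to 21.6 TPM in DSE and 0 to 0.0938 TPM in BMI prostate gland, and 4.58 to 5.98 against 0.0229 to 0.138 TPM in epididymis. In testis the order was the opposite, with 8.89 to 21.8 TPM in DSE and 23.4 to 27.7 TPM in BMI. The class II region gene and the class I fusion model were higher in DSE in each of the other 4 glands, where all 12 DSE libraries lay above all 12 BMI libraries. For the class II region gene, prostate gland held 16.1 to 29.6 TPM in DSE and 0 to 0.23 TPM in BMI.

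The number of calls depended on single libraries. Without BMI replicate 1 or without BMI replicate 3, limma called 0 genes (641 and 559 with an unadjusted p below 0.05), and without DSE replicate 1 it called 1 gene in each direction. Without DSE replicate 3, whose muscle and interferon genes were high, 14 genes were called higher in DSE and 8 higher in BMI. Without BMI replicate 2, whose adipocyte genes were high, 5 were called higher in DSE and 0 higher in BMI. With TPM divided by median-of-ratios size factors, the split was 14 higher in DSE and 5 higher in BMI, and the 3 genes were among them. Without a filter on low values limma called 0 genes, with 1495 at an unadjusted p below 0.05.

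A further 7 genes with a symbol and at least 5 TPM on average had all DSE libraries above all BMI libraries and the largest differences, without a call. This order of libraries was found for 702 of 13674 genes (5.13%), and the reverse order for 763 (5.58%). SPINK2, a Kazal-type inhibitor of serine proteases known from sperm, was at 27.99, 31.9 and 6.26 TPM in DSE and 0, 0 and 0.256 TPM in BMI. It was nearly absent from BMI, and the log2 difference was 4.14 ± 0.548 (adjusted p = 0.0621). HOMER2, a scaffold protein that links receptors to calcium signalling, was at 22.6, 23.4 and 15.5 TPM in DSE and 0.282, 2.64 and 0.62 TPM in BMI. The difference was 3.43 ± 0.416 (adjusted p = 0.0621), and a neighbouring model of the same symbol on chr7 had DSE values of 5.36, 3.204 and 3.04 TPM and BMI values of 0.0812, 0.912 and 0.25 TPM. GREB1L, related to an oestrogen-regulated growth gene, was at 15.1, 10.5 and 6.08 TPM in DSE and 0.367, 0.513 and 0.388 TPM in BMI (2.94 ± 0.342, adjusted p = 0.061). BMP3, a BMP-family ligand, was at 19.2, 6.39 and 13.3 TPM in DSE and 0.319, 1.498 and 1.87 TPM in BMI (2.61 ± 0.451, adjusted p = 0.126). OLFM1, a secreted olfactomedin glycoprotein, was at 31.3, 39.5 and 59.7 TPM in DSE and 7.38, 7.41 and 11.8 TPM in BMI (2.15 ± 0.299, adjusted p = 0.0631). In all of these the BMI libraries were low together. CLCA1, a secreted metalloprotease that processes mucus, was at 1154, 609 and 610.5 TPM in DSE and 513, 70.9 and 41.9 TPM in BMI. Here BMI replicate 1 was close to the DSE libraries, and the difference was 2.70 ± 0.799 (adjusted p = 0.518). The uncharacterised LOC106507912 was at 19.03, 10.4 and 6.69 TPM in DSE and 0.294, 0.63 and 0.816 TPM in BMI (2.95 ± 0.383, adjusted p = 0.0621).

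Of the genes with a symbol and at least 5 TPM on average, the 8 with the reverse order and the largest differences were not called. RDH16, a retinol dehydrogenase that oxidises all-trans-retinol, was at 1.94, 2.19 and 0.654 TPM in DSE and 10.6, 13.2 and 16.03 TPM in BMI, a log2 difference of -2.50 ± 0.337 (adjusted p = 0.0621). Its neighbour on chr5, LOC100626199, which is also annotated as retinol dehydrogenase 16, was at 6.404, 8.89 and 12.7 TPM in DSE and 1.002, 2.04 and 2.03 TPM in BMI, a difference of 1.92 ± 0.331 in the other direction. Another model overlaps both, so the split of reads between them is uncertain. SEL1L3, a SEL1L-related membrane protein, was at 1.27, 0.606 and 2.53 TPM in DSE and 40.9, 6.48 and 17.3 TPM in BMI (-2.93 ± 0.599, adjusted p = 0.227). SMIM22, a small membrane protein of epithelia, was at 0.293, 103 and 62.7 TPM in DSE and 207, 155 and 147 TPM in BMI. DSE replicate 1 was far below every other library, and the log2 difference was -3.05 with it and -1.05 without it. PSP-I, a spermadhesin of seminal plasma, was at 2.395, 0.275 and 0.364 TPM in DSE and 5.11, 73.5 and 2.42 TPM in BMI, with BMI replicate 2 far above the rest, and the log2 difference of -2.68 became -1.34 without that library. Its span overlaps that of other spermadhesin models. CYP4F55, a fatty acid hydroxylase of the cytochrome P450 family, was at 19.4, 17.3 and 2.18 TPM in DSE and 81.8, 32.8 and 49.1 TPM in BMI. SCIN, an actin-severing protein of secretory cells, was at 2.44, 3.01 and 12.9 TPM in DSE and 13.6, 34.2 and 21.1 TPM in BMI. WNT5B, a Wnt ligand, was at 3.38, 3.42 and 13.3 TPM in DSE and 28.9, 20.5 and 22.7 TPM in BMI, and its DSE replicate 3 was above the other DSE libraries, as in SCIN. CERS6, a ceramide synthase, was at 2.404, 0.864 and 5.45 TPM in DSE and 10.7, 18.5 and 7.95 TPM in BMI. The log2 differences of the last 4 lay between -2.30 and -1.88.

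**Figure D3:**
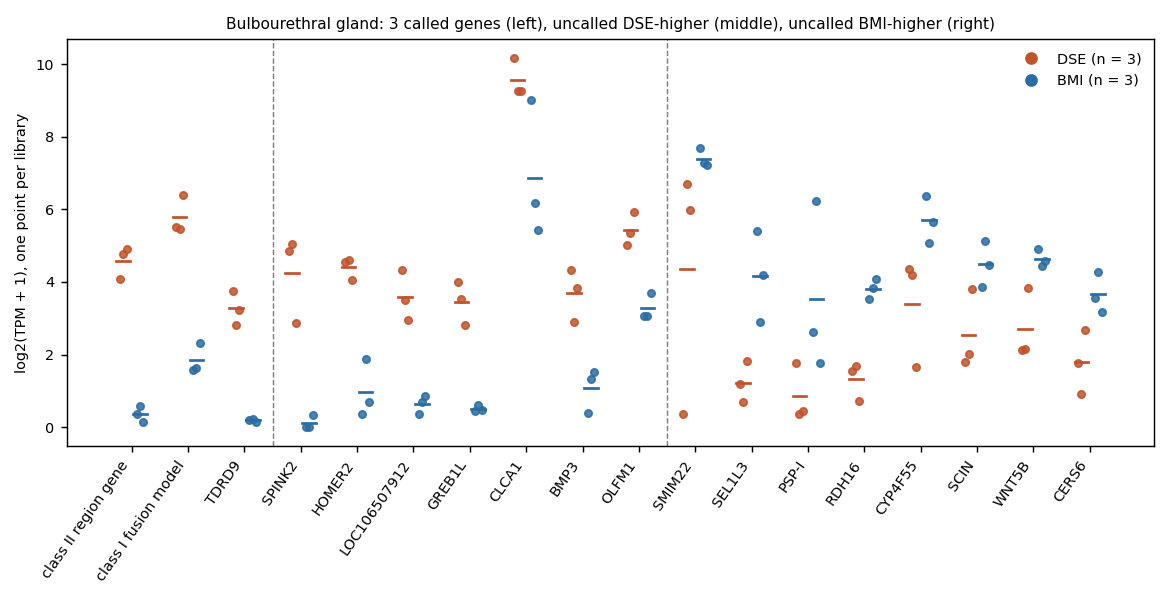
Level as log2(TPM + 1) (vertical axis) of the 3 called genes and of the uncalled genes with the largest differences, with one point per DSE (orange) or BMI (blue) library and a bar at the mean. The breeds do not overlap in any of these genes, and SMIM22 and PSP-I each have one library far from the other two of its breed.

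Genes of ER protein folding and of the unfolded protein response had mostly positive differences, toward DSE, although none was called. Of 48 genes in the list, all tested, 44 had a positive log2 difference, the median was 0.53 against -0.02 over all genes, and 21 (43.8%) had all DSE libraries above all BMI libraries against 5.13% of all genes. The reverse order was found for 0. An unadjusted p below 0.05 was reached by 23 members higher in DSE (2.63% of all genes) and by 0 higher in BMI (2.93% of all genes). The summed level of the list was 9661, 12731 and 12134 TPM in DSE and 4741, 7926 and 8262 TPM in BMI. Every DSE library was above every BMI library, and BMI replicate 1 was the lowest. This library shared its low size factor (0.835) with DSE replicate 2 (0.804), which had the highest sum, and with TPM divided by the size factors the median of the list was 0.56, with 24 members without overlap against 6.63% of all genes.

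The members named here, apart from P4HB, were chosen after their values were seen. Among the chaperones, HSPA5 (BiP), which binds unfolded chains in the ER and restrains the stress sensors, was at 539, 985 and 897 TPM in DSE and 131, 385 and 433 TPM in BMI, with no overlap and a log2 difference of 1.48 ± 0.444 (limma adjusted p = 0.529). HSP90B1 (GRP94), the ER form of HSP90, was at 372, 615 and 404 TPM in DSE and 145, 291 and 267 TPM in BMI, a difference of 1.01 ± 0.298. HYOU1, the nucleotide exchange factor of HSPA5, was at 135, 172 and 182 TPM in DSE and 27.03, 80.4 and 105 TPM in BMI and was lowest in BMI replicate 1 (1.38 ± 0.442). DNAJB11, a co-chaperone of HSPA5, was at 23.1, 38.5 and 27.98 TPM in DSE and 8.84, 13.7 and 19.2 TPM in BMI (1.08 ± 0.315). SDF2L1, which works with DNAJB11, was at 96.5, 496 and 318 TPM in DSE and 19.6, 86.9 and 104 TPM in BMI. It had the greatest log2 difference in the list, 2.12 ± 0.724, but DSE replicate 1 overlapped BMI.

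The protein disulfide isomerases gave PDIA3, the partner of the calnexin cycle, at 709, 1281 and 1133 TPM in DSE and 296, 593 and 626 TPM in BMI (1.07 ± 0.328). PDIA4 was at 315, 577 and 682 TPM in DSE and 127, 294 and 295 TPM in BMI (1.16 ± 0.389). P4HB, on average the most abundant member of the list and the classical isomerase, was at 851, 985 and 1167 TPM in DSE and 525, 799 and 772 TPM in BMI, a smaller difference of 0.53 ± 0.209 with no overlap. In the degradation branch, HERPUD1, which organises the ubiquitin ligase complex for misfolded proteins, was at 301, 336 and 407 TPM in DSE and 124, 224 and 159 TPM in BMI (1.07 ± 0.233, adjusted p = 0.262, the lowest of the list). SELENOS, a selenoprotein of the same machinery, was at 258, 317 and 278 TPM in DSE and 133, 194 and 191 TPM in BMI (0.73 ± 0.192). DERL3, a derlin of the retrotranslocation channel, was at 18.6, 72.4 and 46.5 TPM in DSE and 10.1, 19.4 and 18.9 TPM in BMI, where DSE replicate 1 overlapped BMI.

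The sensors and transcription factors had smaller differences than many of the chaperones. XBP1, the transcription factor activated by IRE1, was at 949, 734 and 722 TPM in DSE and 579.9, 666 and 657 TPM in BMI (0.33 ± 0.163), with no overlap. ATF4 differed by 0.40 ± 0.148 and its target DDIT3 (CHOP) by 0.54 ± 0.184, both without overlap. The sensor genes ERN1 (IRE1, 0.07 ± 0.41), EIF2AK3 (PERK, 0.24 ± 0.253) and ATF6 (0.49 ± 0.359) overlapped between the breeds. PPP1R15A, which reverses the translational block, was the lowest member with -0.51 ± 0.328. Sensors and targets were not tested against each other.

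**Figure D4:**
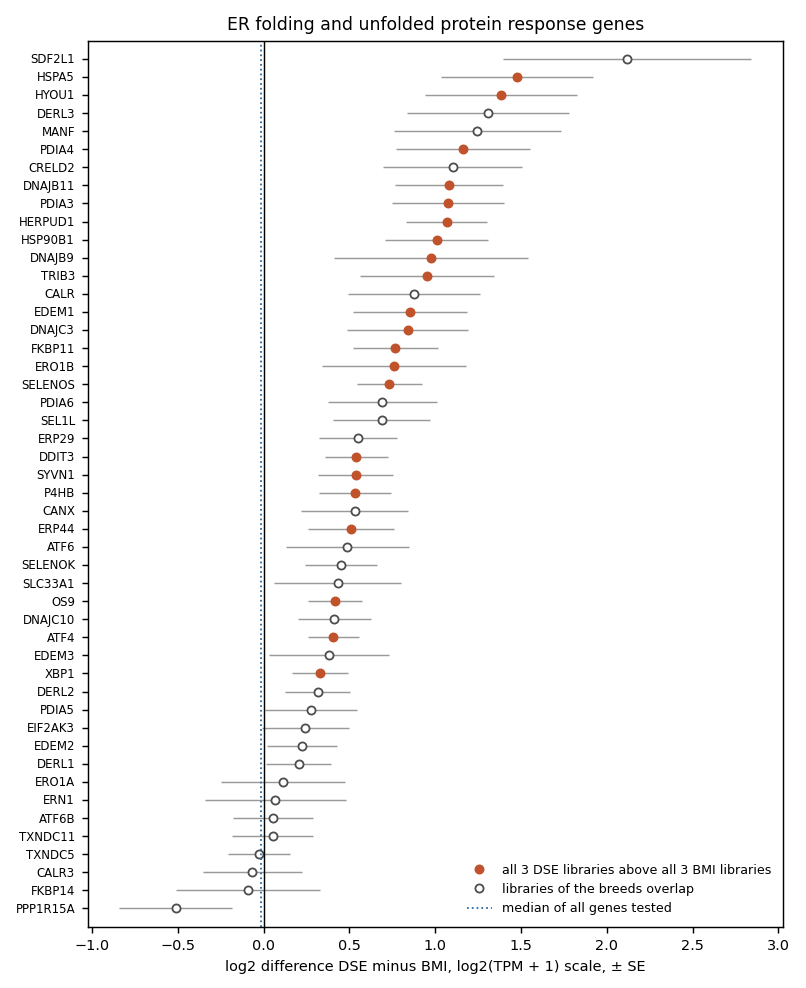
Log2 difference DSE minus BMI ± SE (horizontal axis) of the 48 ER folding and unfolded protein response genes, ordered by size, with filled orange points where all 3 DSE libraries lay above all 3 BMI libraries. Of the 48 points 44 lie right of 0, from SDF2L1 at 2.12 down to PPP1R15A at -0.51, and the dotted line marks the median of all genes at -0.02.

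Promoters of some of these genes held a known element. The ER stress response element (ERSE, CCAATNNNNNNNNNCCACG), to which NF-Y and ATF6 are known to bind, was sought on both strands in the 250 bases upstream of the most abundant transcript of each gene, on Sscrofa11.1. It was present in 9 of 48 list members (18.8%) and in 15 of 13391 promoters of tested genes (0.112%). The 9 were HSP90B1, CRELD2, PDIA6, ERO1B, CALR, CANX, SLC33A1, XBP1 and DERL3. The 8-letter element TGACGTGG (UPRE core), a site known for XBP1, was present in HYOU1 and DNAJC10, 2 of 48 (4.17%), and in 99 of 13391 (0.739%). A match describes the letters only. The sequences below, from the RefSeq genome, show the spacing and the strand of the ERSE in 4 members with log2 differences from 0.33 to 1.31, and the capitals mark it. They are written 5′ to 3′ in the direction of the gene, and CGTGG followed by 9 bases and ATTGG is the element on the other strand. HSP90B1 and DERL3 each carry it 2 times.
HSP90B1 (chr5:80530993-80531242, minus strand): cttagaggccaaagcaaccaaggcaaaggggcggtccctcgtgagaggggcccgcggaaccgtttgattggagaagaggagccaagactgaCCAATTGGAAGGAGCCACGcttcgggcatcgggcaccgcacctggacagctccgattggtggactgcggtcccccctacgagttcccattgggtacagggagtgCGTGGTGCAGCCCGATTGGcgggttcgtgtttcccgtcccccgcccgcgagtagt
DERL3 (chr14:49870859-49871108, plus strand): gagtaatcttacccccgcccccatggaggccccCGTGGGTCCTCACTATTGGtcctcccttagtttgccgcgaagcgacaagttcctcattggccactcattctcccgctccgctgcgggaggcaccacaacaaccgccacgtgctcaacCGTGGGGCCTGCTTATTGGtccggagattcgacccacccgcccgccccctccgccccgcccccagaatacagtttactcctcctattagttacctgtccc
CRELD2 (chr5:716772-717021, minus strand): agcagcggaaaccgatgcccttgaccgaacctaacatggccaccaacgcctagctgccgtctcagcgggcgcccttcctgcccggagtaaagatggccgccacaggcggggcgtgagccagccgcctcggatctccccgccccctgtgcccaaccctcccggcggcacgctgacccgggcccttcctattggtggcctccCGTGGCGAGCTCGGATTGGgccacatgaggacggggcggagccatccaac
XBP1 (chr14:46016527-46016776, minus strand): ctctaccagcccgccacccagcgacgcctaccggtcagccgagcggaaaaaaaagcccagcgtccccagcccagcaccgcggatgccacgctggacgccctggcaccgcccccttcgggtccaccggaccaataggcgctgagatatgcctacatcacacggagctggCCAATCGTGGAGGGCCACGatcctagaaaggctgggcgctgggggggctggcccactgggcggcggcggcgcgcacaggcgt
HSPA5 had no match in its window and a log2 difference of 1.48.

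Leaving out single libraries changed the size of the ER group but not its direction. Without BMI replicate 1 the median was 0.31 (all genes -0.14), with 9 members higher in DSE at an unadjusted p below 0.05 (1.78% of all genes). In that setting 21 members lay toward DSE without overlap, against 6.41% of all genes. Without DSE replicate 3 the median was 0.53 (all genes -0.11), with 16 members higher in DSE (2.28% of all genes) and 1 higher in BMI at that p. The Iso-seq libraries, 1 per breed, did not show the shift. Of 42 members with at least 10 full-length reads, 21 (50.0%) had a larger share of the reads in DSE, as did 3741 of 7505 genes (49.8%). For HSPA5 the Iso-seq counts were 698 full-length reads in DSE and 1308 in BMI, of 265410 and 388569 full-length reads assigned to the isoforms of the deposited table, which are not all reads of the libraries.

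In the other glands the list gave medians of 0.77 in prostate gland (all genes 0.39, or 0.84 and 0.36 without BMI prostate replicate 2, a library that stands apart as described below, while ATP6 was at 37689 TPM in BMI replicate 3 and at most 13103 TPM in the other prostate libraries), 0.03 in testis (-0.10), 0.01 in vesicular gland (-0.42) and -0.28 in epididymis (-0.00). Positive differences were found for 48 of 48 members in prostate gland, 27 of 48 in testis, 24 of 47 in vesicular gland and 8 of 48 in epididymis. In prostate gland the list summed to 8450, 5399 and 6935 TPM in DSE and 4072, 4279 and 4079 TPM in BMI. When the bulbourethral breed difference was set against the mean of the other 4 glands, 0 of the 48 members were called, with a median of 0.39 and 42 members above 0.

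Genes that carry proteins into and out of the ER had smaller differences of the same sign. Of 62 secretory transport genes tested, 58 had a positive log2 difference, the median was 0.27, 20 (32.3%, against 5.13% of all genes) had all DSE libraries above all BMI libraries, and 0 were called. SSR2, a subunit of the translocon-associated complex and the most abundant of the list, was at 749.9, 898 and 899.6 TPM in DSE and 647, 719 and 747 TPM in BMI (0.27 ± 0.15). Chosen after their values were seen, SEC11C, a catalytic subunit of signal peptidase, was at 169.6, 343 and 199 TPM in DSE and 75.9, 153 and 144 TPM in BMI (0.93 ± 0.336), and SSR3 was at 676, 888 and 609.8 TPM in DSE and 413, 498 and 506 TPM in BMI (0.60 ± 0.184). KDELR2, which returns chaperones to the ER, was at 317, 305 and 324 TPM in DSE and 204, 255 and 244 TPM in BMI (0.43 ± 0.149). KDELR3 differed by -0.01 and the Golgi matrix gene GOLGA2 by -0.05. In prostate gland the median of the transport list was larger, 0.60 (all genes 0.39), with 57 of 60 members positive. The medians were 0.14 in testis (-0.10), -0.02 in vesicular gland (-0.42) and -0.13 in epididymis (-0.00).

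Mucin glycosylation genes were centred near 0. Of 54 genes tested the median was 0.02, 5 (9.26%, against 5.13% of all genes) had all DSE libraries above BMI and 0 the reverse (5.58% of all genes). GMDS, which makes GDP-fucose and was the most abundant, differed by -0.02. ST6GALNAC1, the sialyltransferase that caps the first sugar of mucin glycans, was at 423, 309.9 and 314 TPM in DSE and 185, 144 and 132 TPM in BMI, with no overlap and 1.18 ± 0.195 (adjusted p = 0.12). It was named after its values were seen, as were BHLHA15, ATP1B1, ATP6V0A4 and WFDC3 below. Of 8 mucins tested, 0 had separate breeds and 4 had a positive difference. Of 26 mucous cell genes, 3 had DSE above BMI (AGR2, CLCA1 and BHLHA15, the transcription factor of secretory cell architecture, 0.71), which is 11.5% against 5.13% of all genes. In 1 (3.85%, against 5.58%) BMI was above DSE, ZG16B, a secreted lectin, at 124, 143 and 129 TPM in DSE and 209.7, 455 and 490.3 TPM in BMI (-1.44 ± 0.306). ZG16B adjoins the LOC110259943 locus on chr3 and is a paralog of it. Among 41 genes of ion and fluid transport, 5 (12.2%, against 5.13% of all genes) had DSE above BMI and 1 (2.44%, against 5.58%) the reverse. The sodium pump subunit ATP1B1 (0.66) belonged to the former, and ATP6V0A4 of the proton pump (-1.47) was the latter.

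The remaining lists gave no called member. In detoxification and glutathione genes, 4 of 44 (9.09%) had DSE above BMI and 4 the reverse, against 5.13% and 5.58% of all genes, with PRDX1, a peroxidase and the most abundant, at 0.41. GPX8, a peroxidase of the ER chosen after its values were seen, was at 59.8, 78.7 and 55.4 TPM in DSE and 27.8, 26.9 and 23.02 TPM in BMI (1.27 ± 0.201, adjusted p = 0.0949). Of 20 seminal plasma protein genes tested, SPINK2 and WFDC3 (10%, against 5.13% of all genes) had DSE above BMI and PSP-I the reverse, and CST3, a protease inhibitor and the most abundant, differed by -0.34. Fibroblast and matrix genes had the lowest median of the larger lists, -0.53 over 27 genes, with COL1A1 (type I collagen) at 271, 110.2 and 474 TPM in DSE and 435, 331 and 1103 TPM in BMI. DSE replicate 3 and BMI replicate 3 were both high in these genes, with sums of 1725, 1088 and 4541 TPM in DSE and 2735, 2339 and 5303 TPM in BMI. Interferon-stimulated genes had a median of 0.42, and 2 of 50 had separate breeds (against 5.13% of all genes). IFI6, the most abundant, was at 136, 73.6 and 481 TPM in DSE and 110.2, 75.97 and 125 TPM in BMI, high in DSE replicate 3 alone. Luminal epithelium had a median of -0.15 over 17 genes, and KRT19, a luminal keratin, was at 581, 633 and 682 TPM in DSE and 948, 967 and 706 TPM in BMI. KRT18, a luminal keratin chosen after its values were seen, had all DSE libraries above all BMI libraries, at 346, 374 and 447 TPM in DSE and 250.05, 256 and 253 TPM in BMI (0.61 ± 0.152, adjusted p = 0.351).

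To ask which differences were larger here than elsewhere, the breed difference in bulbourethral gland was set against the mean breed difference of the other 4 glands in one limma fit of all 30 libraries. The fit took the libraries as independent, and the labels do not say whether libraries of different glands came from the same boar. It was called for 21 of 13674 genes (0.154%), for 14 with a more positive difference (toward DSE) in bulbourethral gland and for 7 with a more negative one. GREB1L was at 10.5 ± 4.49 TPM in DSE and 0.423 ± 0.0789 TPM in BMI in this gland, and at 26.3 ± 12.95 TPM in DSE and 25.3 ± 5.49 TPM in BMI in testis, a contrast of 3.23 ± 0.494, adjusted p = 0.00196. In vesicular gland GREB1L was lower in DSE without overlap, at 1.94 to 3.38 TPM against 7.74 to 13.4 TPM in BMI. HOMER2 was at 20.5 ± 4.32 TPM in DSE and 1.18 ± 1.28 TPM in BMI here and at 12.9 ± 1.64 TPM in DSE and 9.67 ± 4.84 TPM in BMI in prostate gland (3.21 ± 0.443, adjusted p = 0.000876). SPINK2 was far more abundant in testis, with 1483 ± 761 TPM in DSE and 2078 ± 79.7 TPM in BMI, and the contrast was 3.19 ± 0.623, adjusted p = 0.0256. Outside testis SPINK2 also had all DSE libraries above all BMI libraries, with 808 to 1504 TPM in DSE and 186 to 680.3 TPM in BMI epididymis, 8.65 to 38.5 against 4.29 to 7.001 TPM in vesicular gland, and 0.561 to 2.62 against 0 to 0.528 TPM in prostate gland. MPV17L, a mitochondrial inner membrane protein, was at 9.15 ± 4.17 TPM in DSE and 3.06 ± 1.89 TPM in BMI here but at 0.0618 ± 0.0579 TPM in DSE and 17.8 ± 8.36 TPM in BMI in epididymis. Its contrast of 2.58 ± 0.369, adjusted p = 0.000876 thus held a difference in epididymis of the opposite sign. LOC100626199 gave 2.08 ± 0.369, adjusted p = 0.00952.

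In the other direction, LOC110255214, a beta-1,4 N-acetylgalactosaminyltransferase 2-like gene, was at 0.882 ± 0.233 TPM in DSE and 5.83 ± 3.98 TPM in BMI in bulbourethral gland and at 88.6 ± 12.3 TPM in DSE and 9.07 ± 8.08 TPM in BMI in prostate gland (-2.94 ± 0.621, adjusted p = 0.0471). ZG16B likewise was at 132 ± 10.01 TPM in DSE and 385 ± 153 TPM in BMI here and at 803 ± 332 TPM in DSE and 165 ± 122 TPM in BMI in prostate gland (-2.08 ± 0.433, adjusted p = 0.0454). For both genes the prostate difference was toward DSE. One of the BMI prostate libraries stood apart, since in replicate 2 PSP-I, which was at 216153 to 261758 TPM in the vesicular gland libraries, was at 169569 TPM, against 6.73 and 1.04 TPM in BMI prostate replicates 1 and 3. ZG16B was at 147, 53.4 and 295 TPM in the BMI prostate libraries and LOC110255214 at 6.49, 2.59 and 18.1 TPM. Without replicate 2, an alternative chosen after seeing the data, the contrast was -1.92 for ZG16B (adjusted p = 0.00593) and -2.80 for LOC110255214 (adjusted p = 0.0436). CPLX3, a complexin of regulated exocytosis, was at 7.82 ± 1.704 TPM in DSE and 27.8 ± 12.00 TPM in BMI here, and its mean in the other glands was at most 0.142 TPM (-1.59 ± 0.244, adjusted p = 0.00196). DPP4, a membrane dipeptidase, was at 1.31 ± 0.712 TPM in DSE and 4.98 ± 1.45 TPM in BMI here and at 25.6 ± 6.13 TPM in DSE and 33.2 ± 4.47 TPM in BMI in vesicular gland (-1.45 ± 0.304, adjusted p = 0.0456, and 0.058 without BMI prostate replicate 2). RDH16 gave -2.62 ± 0.51, adjusted p = 0.0256.

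**Figure D5:**
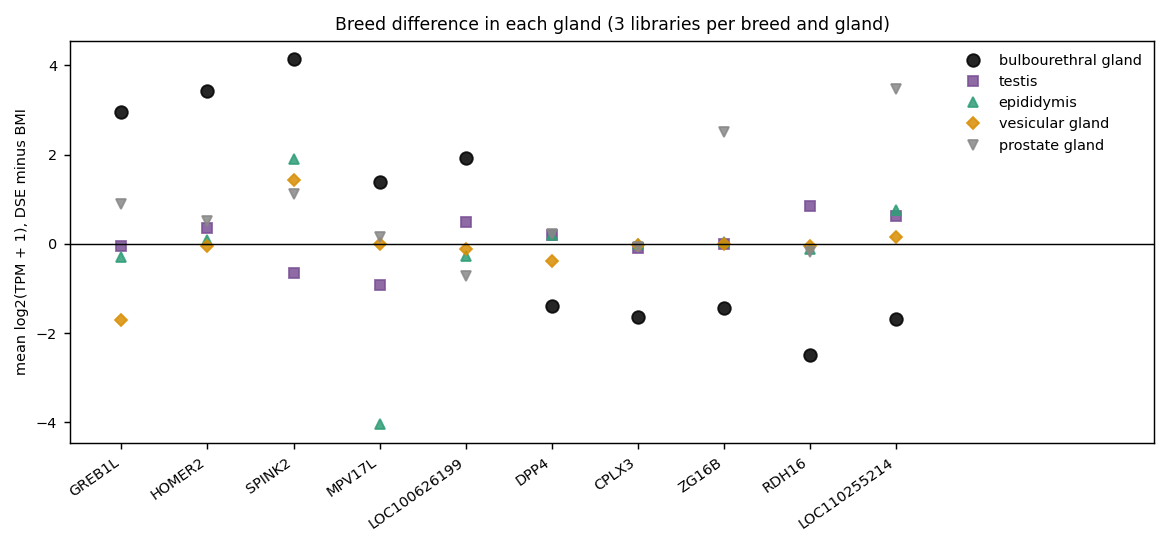
Mean log2(TPM + 1) in DSE minus BMI (vertical axis) in each of the 5 glands, from 3 libraries per breed and gland, for the 10 named genes whose bulbourethral breed difference departed from that of the other glands. The black points of bulbourethral gland lie above the others for SPINK2, HOMER2 and GREB1L and below them for RDH16, CPLX3 and DPP4, and the prostate points of ZG16B and LOC110255214 lie on the other side of 0.

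The same fit of 30 libraries, which estimates the spread from all 10 groups, called 64 genes for the bulbourethral breed difference itself (0.468%), 37 higher in DSE and 27 higher in BMI. In all 37 the DSE libraries lay above the BMI libraries, and in all 27 the reverse, against 5.13% and 5.58% of all genes. The calls were made on the same libraries, so this order is no separate support for them. The 3 genes above were among them, as were 12 of the genes named by rule that had no call in the 6 libraries alone. These are SPINK2, HOMER2, LOC106507912, GREB1L, CLCA1, BMP3 and LOC100626199 toward DSE and SEL1L3, RDH16, SCIN, CPLX3 and DPP4 toward BMI. Also described above and called in this limma fit were the neighbouring HOMER2 model (adjusted p = 0.000414) and ATP6V0A4 (adjusted p = 0.0388). For CLCA1 the adjusted p was 0.00667 in this fit. Named after their values were seen, RNF17, another tudor-domain protein of germ cells, was at 3.02, 2.68 and 3.46 TPM in DSE and 0.17, 0.183 and 0.249 TPM in BMI (adjusted p = 0.0118 in this fit). APOE, a lipid carrier, was at 307, 98.5 and 543 TPM in DSE and 70.00, 84.8 and 49.2 TPM in BMI (adjusted p = 0.0165), with DSE replicate 2 near the BMI libraries. SLC6A2, the noradrenaline transporter, was at 24.9, 19.2 and 22.2 TPM in DSE and 5.36, 7.03 and 5.77 TPM in BMI (adjusted p = 0.00156). ATP2B3, a plasma membrane calcium pump, was at 4.87, 10.4 and 4.65 TPM in DSE and 0.269, 0.181 and 0.101 TPM in BMI (adjusted p = 0.00149). Higher in BMI were OCIAD2, an endosomal and mitochondrial protein, at 0.274, 0.351 and 0.454 TPM in DSE and 2.67, 3.001 and 3.63 TPM in BMI (adjusted p = 0.00465), and NTPCR, a nucleoside triphosphatase, at 11.5, 13.1 and 17.7 TPM in DSE and 35.1, 27.7 and 31.9 TPM in BMI (adjusted p = 0.012).

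Iso-seq gave 1 library of full-length reads per breed, and its counts are values without replicate error or test. CLCA1 had 1187 full-length reads in DSE and 88 in BMI, of the 265410 and 388569 in the isoform table, on which the shares and limits here are based. MUC5B had 925 full-length reads in DSE and 124 in BMI. For HOMER2 there were 23 full-length reads in DSE and 1 in BMI and for GREB1L 24 full-length reads in DSE and 2 in BMI. All 4 genes had a larger share of the reads in DSE, and of them MUC5B overlapped between the breeds in RNA-seq. TDRD9 had 8 full-length reads in DSE and 0 in BMI, where a count of 0 allows a share of up to 0.000772% of the reads (3 counts, for counting error only). The class I fusion model had 0 full-length reads in DSE and 2 in BMI, too few to compare. On the other side, SEL1L3 had 1 full-length read in DSE and 37 in BMI, CERS6 8 full-length reads in DSE and 51 in BMI, and DPP4 2 full-length reads in DSE and 19 in BMI. OLFM1, higher in DSE by RNA-seq, had 2 full-length reads in DSE and 7 in BMI. ACTA1, the skeletal muscle actin, had 0 full-length reads in DSE and 1998 in BMI, and its presence in the DSE Iso-seq library was not detectable at this depth, where 0 reads allow a share of up to 0.00113%.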

How the data were processed

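Snap-frozen bulbourethral glands of 12-month-old DSE and BMI boars were profiled by RNA-seq (3 libraries per breed) and Iso-seq (1 library per breed). The methods describe poly-T mRNA purification, whereas the labels name rRNA depletion. The authors trimmed the short reads with cutadapt, quantified transcripts of an annotation merged from Ensembl and Iso-seq isoforms with Salmon 1.9.0 (version per the submitters' processing notes, which also name STAR 2.7.10a and Bowtie 1.3.1), and deposited TPM per transcript on Sscrofa11.1. They deposited, for each Iso-seq isoform, the count of full-length reads. TPM does not hold the read depth, so no interval or count model was used. The small RNA table was not analysed here.

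TPM was summed to 35552 genes over 133722 transcripts. Symbols came from the gene ID for 15397 genes, from the isoform table for 149 and from exon overlap with RefSeq (at least 0.5 of the shorter model) for 4011. The comparison used limma 3.58.1 in R 4.3.3 on log2(TPM + 1), with eBayes and a mean-variance trend, for genes with at least 1 TPM in at least 3 of 6 libraries. A fold on this scale understates the change of low genes. The method was tested on simulated data. All 32 gene lists are given by counts and medians, without a set test. The members and lists were chosen with earlier results of these data known. Named genes were, by rule, the largest called genes in each direction, filled to 8 with uncalled genes that have a symbol, no overlap and at least 5 TPM on average, the 10 most abundant, the most abundant and any called member of each list, and 5 genes in each direction of the contrast with the other glands. A few genes that this rule or the lists would name are not reported here.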

Additional observations from a re-analysis of the deposited data

Results flagged for a closer look

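The breed difference in bulbourethral gland departed from the mean of the other 4 glands, by a limma test of the contrast itself (adjusted p below 0.05 and a size of at least 1), in the following named genes. On the log2 scale the contrast was 3.23 for GREB1L, 3.21 for HOMER2, 3.19 for SPINK2, 2.58 for MPV17L and 2.08 for LOC100626199, in each of which bulbourethral gland was more toward DSE. It was -2.94 for LOC110255214, -2.62 for RDH16, -2.08 for ZG16B, -1.59 for CPLX3 and -1.45 for DPP4, where it was more toward BMI. Opposite breed differences without overlap were found for MPV17L in epididymis and testis, for GREB1L in vesicular gland, and for ZG16B and LOC110255214 in prostate gland, and were not tested by themselves, while other glands of these genes had opposite differences of the means with overlap. RDH16 and LOC100626199 are neighbouring models that share an overlapping model. Without BMI prostate replicate 2, where PSP-I was near its vesicular gland level, 9 of the 10 genes kept the call and DPP4 did not.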

How the results depend on the processing

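The main comparison called 3 genes higher in DSE and 0 higher in BMI. The counts, DSE first, were 9 and 1 with a pseudocount of 0.1, 0 and 0 without a filter on low values (1495 genes with an unadjusted p below 0.05), 14 and 5 with size factors, 11 and 1 without the eBayes trend, and 37 and 27 in one fit of all 30 libraries (38 and 33 without BMI prostate replicate 2, a setting chosen after seeing the data). With at least 5 TPM they were 2 and 0, and with robust eBayes 3 and 0. Leaving out single libraries gave 0 to 14 genes higher in DSE and 0 to 8 higher in BMI. The contrast with the other glands gave 14 and 7 genes, 6 and 0 with a pseudocount of 0.1, and 7 to 14 and 3 to 11 when single bulbourethral libraries were left out, and 14 and 10 without BMI prostate replicate 2. The first principal component held 33.5% of the variance with size factors, against 43.0%. With a pseudocount of 0.1 the breeds separated most along component 2, which held 22.0% of the variance, 72.1% of it between the breeds. With genes scaled to unit variance it was also component 2 (58.9% between the breeds), and with size factors component 3 (50.8%). The number of ER folding members without overlap, 21, ranged from 21 to 29 without single libraries, where the share of all genes rose from 5.13% to between 6.41% and 15.1%, and was 24 with size factors (alternatives chosen after seeing the data). Of the list medians, that of mucous secretory cell genes became -0.28 without DSE replicate 3, from 0.09, that of blood genes 0.81 with at least 5 TPM, from -0.12, and that of plasma cell and B cell genes 0.06 without DSE replicate 1 and 0.23 without BMI replicate 2, from -0.33. Of the 10 named genes of the contrast, 85 of the 120 alternative values kept the call and none changed sign. Of the genes named by rule without a call, 15 gained one under at least 1 alternative. Among them were SPINK2 (6.87, adjusted p = 0.0393) and GREB1L (4.27, adjusted p = 0.035) with a pseudocount of 0.1, from 4.14 and 2.94. With that pseudocount HOMER2 (4.48), LOC106507912 (4.11), BMP3 (3.44), RDH16 (-3.12), LOC100626199 (2.40), LOC110255214 (-2.37) and DPP4 (-1.97) moved without a call. The cause of these changes was not tested.

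Same-numbered libraries of the breeds did not deviate together (correlations of deviations -0.23, -0.24 and 0.20), so the numbers were not taken as pairs. With a replicate block, 2 genes were called higher in DSE and 0 higher in BMI, and the contrast gave 15 and 7.

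TPM does not hold the read depth. The paper gave more total reads for every BMI bulbourethral RNA-seq library than for any DSE one, and how depth limits these differences was not measured.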
